A study of Homo sapiens with 12 samples.

Results

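Long non-coding RNAs (lncRNAs) are transcripts with no recognised protein product, and many of them act in the nucleus as scaffolds, as antisense partners of coding genes or as hosts of small RNAs. N6-methyladenosine (m6A) is deposited on RNA by a methyltransferase complex built around METTL3 and METTL14, mostly at sites with the bases GGAC at their core, and FTO is a demethylase that can remove it. MALAT1, a nuclear speckle transcript, is among the lncRNAs best known to carry it.

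The peaks described here were chosen by the transcript type "lncRNA" that the authors' peak lists give, and they numbered 4233 of 28891 peaks in FTO knockdown and 6881 of 39492 peaks in control, or 11114 of 68383 peaks in all. They were named for 4040 lncRNA genes. A further 271 of 8687 named peaks in the authors' deposited table of differential m6A were added because their coordinates equalled those of a peak in this set.

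All samples were HGC27 cells, a human gastric carcinoma line. The knockdown group (titles FTO-KO_sh, genotype label FTO-KO, called a knockdown in the protocol) and the control group (titles WT_Con, genotype label WT) each had 3 m6A immunoprecipitation libraries and 3 input libraries, 12 in all. Poly(A) RNA was cut to about 100 nt and sequenced after immunoprecipitation with an m6A antibody, or directly as input. The labels do not say whether the numbered samples were separate cultures or carried different hairpins. A p-value of the expression tests thus reflects how far these particular samples scatter, and that scatter could be technical. The p-values of peaks and differential peaks are the authors' own. Whether they reflect scatter between samples is not given in the sources used here.

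FTO itself stood at 0.786, 0.830 and 0.765 FPKM (fragments scaled by transcript length and library total) in knockdown inputs, against 5.48, 5.68 and 5.52 FPKM in control inputs. Markers of epithelial, mesenchymal, fibroblast, immune and endothelial cells had been written down to check the cell line label. Of these, levels were at hand only for the fibroblast markers THY1 and COL1A1. THY1 had a mean of 15.0 FPKM in knockdown and 12.5 FPKM in control, and COL1A1 had 147 FPKM in knockdown and 169 FPKM in control. No epithelial marker had a level, so the label was not checked that way. The peak lists were made from all 3 library pairs of a condition together, and no read counts per library were at hand. Sequencing depth is therefore unknown, and peak counts, shares and enrichments have no replicate error. Shares carry 95% exact binomial intervals, which cover counting error only.

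Sequence was at hand for the first 50 transcribed bases of 790 of 3551 lncRNA symbols (RefSeq, GRCh38.p14), and for 108 lncRNAs those bases lay wholly inside a peak called on the lncRNA itself. The 6 lncRNAs whose first bases lay inside a peak in both lists and held GGAC are shown with that motif in capitals, and with a following T in capitals where it completes GGACT.

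MIR1915HG: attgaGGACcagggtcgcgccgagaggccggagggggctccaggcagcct
LINC00667: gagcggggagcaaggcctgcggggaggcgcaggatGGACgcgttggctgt
WASL-DT: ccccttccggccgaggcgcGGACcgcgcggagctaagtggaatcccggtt
RAB30-DT: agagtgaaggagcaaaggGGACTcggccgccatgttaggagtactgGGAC
LINC00265: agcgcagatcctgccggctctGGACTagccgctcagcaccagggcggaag
NDUFA6-DT: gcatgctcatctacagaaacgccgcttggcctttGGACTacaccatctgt

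These windows start at the RefSeq gene start and are written 5′ to 3′ on the transcript strand. MIR1915HG (chr10:21497211-21497260, minus strand) is a microRNA host and had a peak of 69.5-fold enrichment over input in the knockdown list and 51.9-fold in the control list. LINC00667 (chr18:5238100-5238149, plus strand) had 31.4-fold and WASL-DT (chr7:123749195-123749244, plus strand) 20.4-fold in the knockdown list, with 27.5-fold and 18.9-fold in the control list. RAB30-DT, LINC00265 and NDUFA6-DT had weaker peaks there, of 11.3-fold, 8.26-fold and 4.85-fold in the knockdown list and 8.40-fold, 6.91-fold and 3.44-fold in the control list. WASL-DT, RAB30-DT and NDUFA6-DT are divergent transcripts, which start beside a coding gene and run away from it. Enrichments and peak p-values are the authors' own, and those of the 2 lists were made separately, so they stand side by side without a comparison. Coordinates are those of the files, and 99.1% of 24159 named transcripts overlapped the span of their gene in GRCh38.p14.

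GGACT was present in the first 50 bases of 10 of the 108 lncRNAs, or 9.26% (95% interval 4.53 to 16.4%), against 4.90% of 35116 RefSeq gene starts. On the other strand of the same windows it was present in 6.48% of the 108 and 4.91% of all starts. For GGAC, which every GGACT contains, the shares were 19.4% of the 108 and 18.9% of all starts. The intervals of the 108 windows include the share of all starts for both motifs, so no difference was detectable with this number of windows. NORAD and SNHG5 are examples of lncRNAs with a peak over their first 50 bases and neither motif in them. Their peaks extend past these bases, and the rest of each peak was not searched.

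NORAD: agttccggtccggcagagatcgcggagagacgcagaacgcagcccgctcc
SNHG5: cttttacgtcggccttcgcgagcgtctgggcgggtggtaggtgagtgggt

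In 2 microRNA host transcripts the peak also covered a microRNA hairpin on the same strand. These are the mature microRNAs of those hairpins, with the seed (bases 2 to 8), which pairs with target RNAs, in capitals.

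hsa-miR-2682-3p: cGCCUCUUcagcgcugucuucc
hsa-miR-2682-5p: cAGGCAGUgacuguucagacguc
hsa-miR-4453: gAGCUUGGucuguagcgguu

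The 3 seeds differ from each other. The MIR2682 hairpin (chr1:98045242-98045351) lies in MIR137HG, and all 110 of its bases were inside a 25.9-fold peak of the knockdown list, against 50 of them inside an 8.40-fold peak of the control list. The MIR4453 hairpin (chr4:152536428-152536516) lay whole, with its 89 bases, inside a 37.4-fold peak on MIR4453HG in the control list. A peak on NALT1 in the control list overlapped the MIR4674 hairpin on the opposite strand.

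The type label was checked against the gene model on which each peak had been called, which the lists give in a second identifier. Of the lncRNA-type peaks, 2632 of 4233 in the knockdown list (62.2%, 60.7 to 63.6%) and 4634 of 6881 in the control list (67.3%, 66.2 to 68.5%) had been called on the lncRNA they are named for. The others had been called on another gene and carried the lncRNA's name from the transcript given for the peak, whose start lay at a median of 3897 bp from the peak in the knockdown list and 3515 bp in the control list. Peaks of other types were called on the gene they are named for in 81.1% of cases in the knockdown list and 79.5% in the control list. The identifier of the label thus differs from that of the gene model for 37.8% of the knockdown peaks and 32.7% of the control peaks of the set. Another gene here means another identifier, which can still belong to the same locus. A knockdown peak named for ELFN2 had a gene model that also carries the symbol ELFN2. In both lists a PVT1 peak with a second identifier lay inside the peak called on PVT1 itself. Such cases were not counted.

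Most of the peaks on another gene were on protein-coding genes, by the RefSeq type of the matched symbol, with 80.4% of 1601 such peaks in the knockdown list and 76.8% of 2247 in the control list. They lay in a 3′ untranslated region (3′ UTR) in 66.1% of cases in the knockdown list and 65.2% in the control list. Where the strand of that gene was known, it was opposite to the named lncRNA for 24.2% of the knockdown peaks and 26.0% of the control peaks. Whether the counting used strand is not given in the sources used here, so reads from an antisense pair cannot be told apart.

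**Figure D1:**
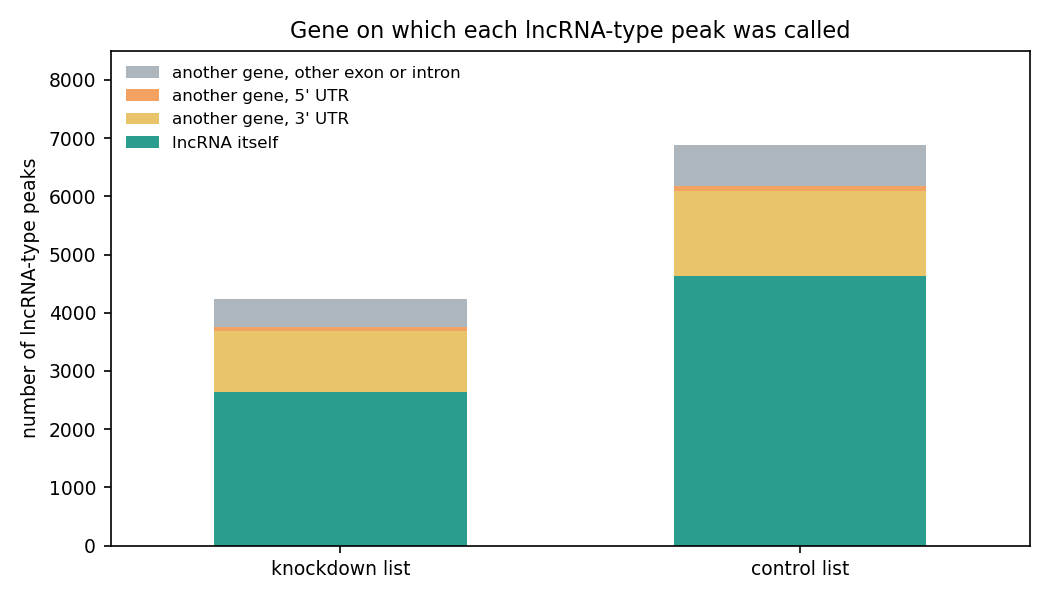
Number of lncRNA-type peaks in the knockdown list (left) and the control list (right), stacked by the gene on which the peak was called. The lowest block, peaks on the lncRNA itself, holds 2632 knockdown peaks and 4634 control peaks, and peaks on 3′ UTRs of other genes hold 1058 and 1464 in the same order of lists.

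Among the strongest peaks of the set, most had been called on another gene. Of the 10 most enriched with an adjusted p of at most 1e-05, 1 per gene, 3 in the knockdown list and 4 in the control list had been called on the lncRNA itself. AC125807 named a peak in the 3′ UTR of TEAD4, a transcription factor of the Hippo pathway (chr12:3040377-3040676), at 210-fold in the knockdown list and 95.6-fold in the control list. AC008738 named a knockdown peak of 115-fold in the 3′ UTR of CEBPA, a transcription factor of myeloid and liver differentiation. LINC01138 named the strongest control peak of the set, 115-fold, in the 3′ UTR of NBPF14.

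Among peaks called on the lncRNA itself, DLEU1, a transcript of a region often deleted in chronic lymphocytic leukaemia, had the most enriched knockdown peak, 290-fold at chr13:50715290-50715740. LINC01521 followed with 133-fold, NEAT1 with 117-fold, the antiviral regulator NRAV with 104-fold and DICER1-AS1, an antisense transcript of DICER1, with 101-fold. In the control list PLAC4 led with 98.5-fold, ahead of AC092620 with 84.0-fold, NEAT1 with 82.6-fold, and AL365272 with 64.1-fold. NEAT1, PLAC4 and MIR1915HG were among the 10 most enriched of both lists.

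Peaks on the lncRNA itself had a median enrichment of 7.67-fold (quartiles 4.37 and 12.9) in the knockdown list, where peaks of other types had 6.89-fold (quartiles 3.74 and 12.6). In the control list the medians were 6.87-fold on the lncRNA itself (quartiles 3.97 and 10.7) and 5.77-fold for other types (quartiles 2.94 and 10.1). Fewer of the lncRNA peaks were statistically strong: 62.3% in the knockdown list and 41.2% in the control list had an adjusted p of at most 1e-05, against 83.3% and 64.3% of the other types in those lists. These peaks thus had a slightly higher median fold and a lower share of small p-values than other peaks of the same list. Their median exonic length was 210 bp in the knockdown list and 298 bp in the control list, beside 299 bp and 331 bp for other types. In the control list 6.87-fold was also the value of weak peaks such as that of EWSAT1 (authors' log10 adjusted p of -0.625). The same held for 6.11-fold, as at LINC02202 (-0.436). Both values recur as medians of control peaks here and below, and how far weak peaks set these medians was not tested.

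Position was taken for the 2303 knockdown and 4128 control peaks on the lncRNA itself that lay on the named transcript's span. That span was cut into 3 equal stretches of genomic length, introns included. The first stretch held the centres of 44.9% of these knockdown peaks and 42.2% of the control peaks, and the last 31.7% and 32.2%. Single-exon transcripts held 25.2% of the knockdown peaks and 24.8% of the control peaks. In transcripts with more exons, 47.0% of knockdown peaks and 44.97% of control peaks lay in the last exon, and 38.7% and 39.7% in the first exon. The middle stretch held 23.4% of knockdown and 25.6% of control peaks. Exonic bases in each stretch were not counted, so these shares do not show where along the spliced RNA peaks were denser.

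By symbol, clone-based names such as AC or AL with digits made up 63.4% of the knockdown members and 62.4% of the control members. Antisense names (-AS) made up 15.3% and 14.5%, and intergenic LINC names 10.2% and 12.1%. The classes differed in how often the peak was on the lncRNA itself. That share was 92.4% in the knockdown list and 90.3% in the control list for divergent (-DT) transcripts, 78.0% and 79.5% for antisense names, and 53.6% and 59.6% for clone-based names. Intronic and overlapping transcripts (-IT, -OT) had the lowest shares, 21.6% of 37 knockdown peaks and 32.6% of 46 control peaks.

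Peaks on lncRNAs often lay within the span of a protein-coding gene, on either strand: 41.7% in the knockdown list and 37.4% in the control list. For antisense names the shares were 53.8% and 48.0%, and for LINC names 4.47% and 5.45%. Inside such spans the median enrichment was 6.76-fold in the knockdown list and 6.11-fold in the control list, against 8.09-fold and 6.87-fold outside.

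The lists were compared by shared exonic bases. Of the lncRNA-type peaks, 88.5% in the knockdown list (87.5 to 89.5%) shared at least 1 bp with a control peak, and 49.4% in the control list (48.2 to 50.5%) shared at least 1 bp with a knockdown peak. On the lncRNA itself the shares were 85.6% and 44.0%, and for peaks of other types 89.1% and 60.1%. With all peaks counted, the share on the lncRNA itself was thus below that of other types in both lists. The intervals were 84.2 to 87.0% against 88.7 to 89.4% for the knockdown peaks and 42.6 to 45.4% against 59.6 to 60.6% for the control peaks. They treat peaks as independent and give no replicate error. The lncRNA peaks were also shorter and less often strong, as given above, and the part of that in these shares was not tested. Unshared control peaks on lncRNAs had a median enrichment of 6.11-fold, against 8.21-fold for shared ones.

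With strong peaks alone in both lists, the shares on the lncRNA itself were 87.6% of 1639 knockdown peaks and 67.4% of 1909 control peaks, against 89.6% and 76.7% for other types. Strong peaks set against all peaks of the other list gave 96.6% and 75.6% on the lncRNA itself, against 94.9% and 79.6% for other types. By that rule the knockdown share on the lncRNA itself was above that of other types, and the control share below. Some peaks also repeat bases within a list: 580 of 4233 knockdown peaks and 939 of 6881 control peaks shared bases with another peak of the set. On the lncRNA itself this held for 124 knockdown peaks and 160 control peaks, and 87 and 103 of them shared bases with a peak of the same gene. NEAT1 was listed this way, with pairs of nearly equal peaks.

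Counted by gene, 3048 lncRNAs had a peak called on themselves. Of these, 235 had one in the knockdown list alone, 1299 in the control list alone and 1514 in both. With strong peaks the counts were 194 in the knockdown list alone, 446 in the control list alone and 978 in both, of 1618. Most carried a single peak, as 1235 of 1749 lncRNAs did in the knockdown list and 1859 of 2813 in the control list.

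KCNQ1OT1, an imprinted antisense transcript that silences genes around KCNQ1, had 6 knockdown peaks over 1266 bp and 41 control peaks over 11320 bp. Of those, 3 knockdown peaks and 10 control peaks had an adjusted p of at most 1e-05, so most of the difference was in weak peaks. LINC00662 had 19 knockdown peaks over 4638 bp and 32 control peaks over 15265 bp, with 14 and 19 of them strong. OLMALINC, a transcript first described in oligodendrocyte maturation, had 4 knockdown and 11 control peaks. MIR646HG, a microRNA host, had 8 knockdown and 10 control peaks, and AL590004 had 8 in each list, 7 of them strong in knockdown and 0 in control. For KCNQ1OT1, LINC00662 and OLMALINC the input level was also lower in knockdown, as given with the expression results, and the part of that in the peak counts was not tested.

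**Figure D2:**
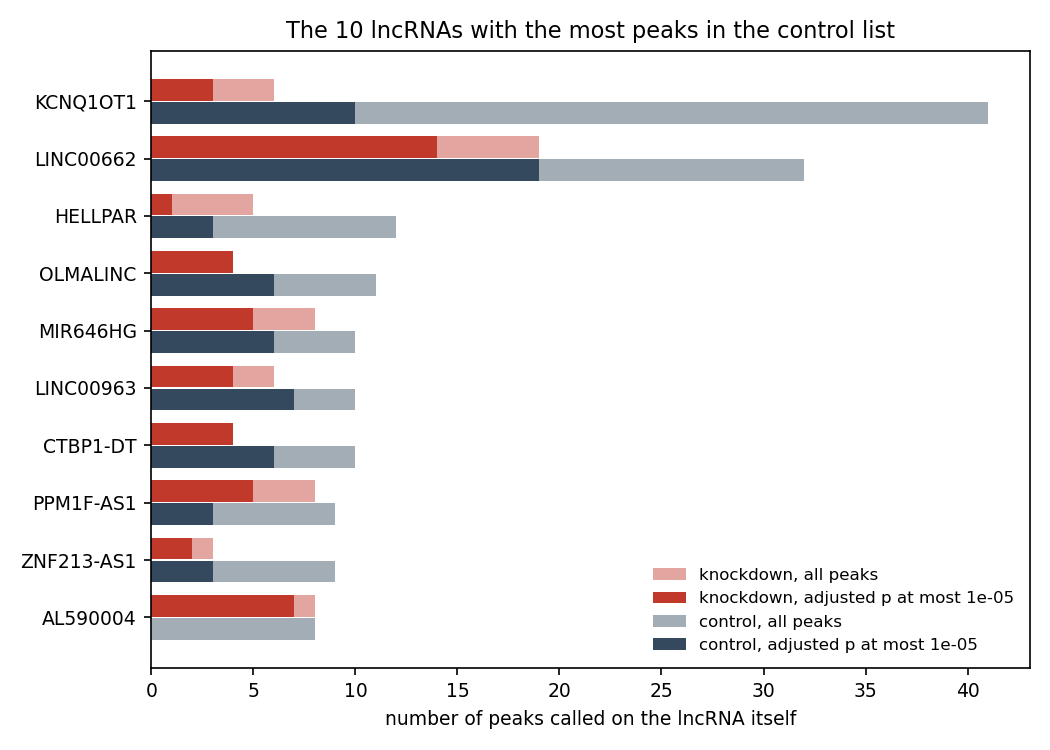
Number of peaks called on the lncRNA itself for the 10 lncRNAs with the most control peaks, with knockdown above control for each gene. Pale bars count all peaks and dark bars those with an adjusted p of at most 1e-05. KCNQ1OT1 had 6 knockdown and 41 control peaks, of which 3 and 10 were strong.

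The nuclear body lncRNAs had peaks in both lists. On NEAT1, the scaffold of paraspeckles, a peak at chr11:65422774-65423223 had 17.4-fold enrichment in the knockdown list and 21.5-fold in the control list. Farther along, the control list had a peak of 1769 exonic bp (chr11:65423517-65425285, 82.6-fold), where the knockdown list had separate peaks of 630 bp (10.2-fold) and 120 bp (117-fold). MALAT1 had 1 knockdown peak of 1407 bp at 6.60-fold, and 3 control peaks of 1976, 719 and 121 bp at 9.41-fold, 6.57-fold and 1.16-fold.

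HOX cluster lncRNAs had peaks in 12 genes in the knockdown list and 13 in the control list, and on the lncRNA itself in 9 and 11 of them. HOTTIP, at the 5′ end of the HOXA cluster, had a peak on itself of 1.66-fold in the knockdown list and 2.89-fold in the control list, while 14.0-fold and 17.5-fold peaks under its name lay in the 3′ UTR of HOXA13. HOTAIR, in the HOXC cluster, had 3.79-fold on itself in the knockdown list and 2.94-fold in the control list, and a 61.0-fold knockdown peak of its name lay in the 3′ UTR of HOXC11. HOXA-AS2 had 24.4-fold on itself in the knockdown list (chr7:27122447-27122865) and 10.4-fold in the control list.

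Small nucleolar RNA host genes, whose introns carry snoRNAs, had few peaks. SNHG5 was the only one with a peak in the knockdown list, 19.4-fold over its start, and in the control list its peak there had 5.96-fold. SNHG20, SNHG31 and ZFAS1 had peaks of 2.95-fold to 9.54-fold on themselves in the control list alone. MicroRNA hosts had peaks in 12 genes in the knockdown list and 16 in the control list, on the host itself in 7 and 13, at 2.40-fold to 69.5-fold and 2.33-fold to 51.9-fold over all their member peaks.

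Of the cytoplasmic decoys, NORAD, which binds Pumilio proteins, had 29.9-fold over 1165 bp in the knockdown list and 22.6-fold over 1403 bp in the control list, both at its 5′ end. CYTOR had 21.6-fold over 2070 bp and 17.4-fold over 2190 bp on itself. Of the cancer-linked list, peaks lay on 9 genes in the knockdown list and 12 in the control list. H19, an imprinted transcript that hosts a microRNA, had 54.2-fold over 389 bp in the knockdown list and 8.53-fold over 299 bp in the control list. PVT1, the neighbour of MYC, had its most enriched peak on itself at 9.67-fold in the knockdown list and 7.25-fold in the control list, over the same 451 bp.

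The authors' deposited table of differential m6A peaks gave a log2 change for 271 peaks of the set, with the sign turned here to read knockdown over control. Of these, 116 were higher and 155 lower in knockdown, or 42.8% higher, where 55.4% of all 8687 named peaks of the authors' deposited table were higher and 44.6% lower. On the lncRNA itself 56 were higher and 87 lower, and on another gene 60 were higher and 68 lower. Of the 271 peaks, 230 had an adjusted p of at most 0.05 in the authors' deposited table (101 higher, 129 lower). The share of all 8687 named peaks under that threshold was not counted.

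The direction moved with the list from which the coordinates came. Among the 59 peaks with the coordinates of a knockdown peak alone, 57 were higher in knockdown in the authors' deposited table (96.6%, where 97.2% of all 643 named peaks from that source were). Among the 180 with the coordinates of a control peak alone, 35 were higher and 145 lower in the authors' deposited table (19.4% higher, against 30.2% of all 1440 named peaks from that source). Of the 32 with coordinates in both lists, 24 were higher and 8 lower in the authors' deposited table (75% higher, against 85.1% of all 201). The share from the knockdown list alone thus lay near that of all named peaks, and the other shares lay below it; these differences were not tested. Over all 1029 rows of lncRNA type in the authors' deposited table, most of which match no list coordinates, 424 were higher and 605 lower (41.2% higher).

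**Figure D3:**
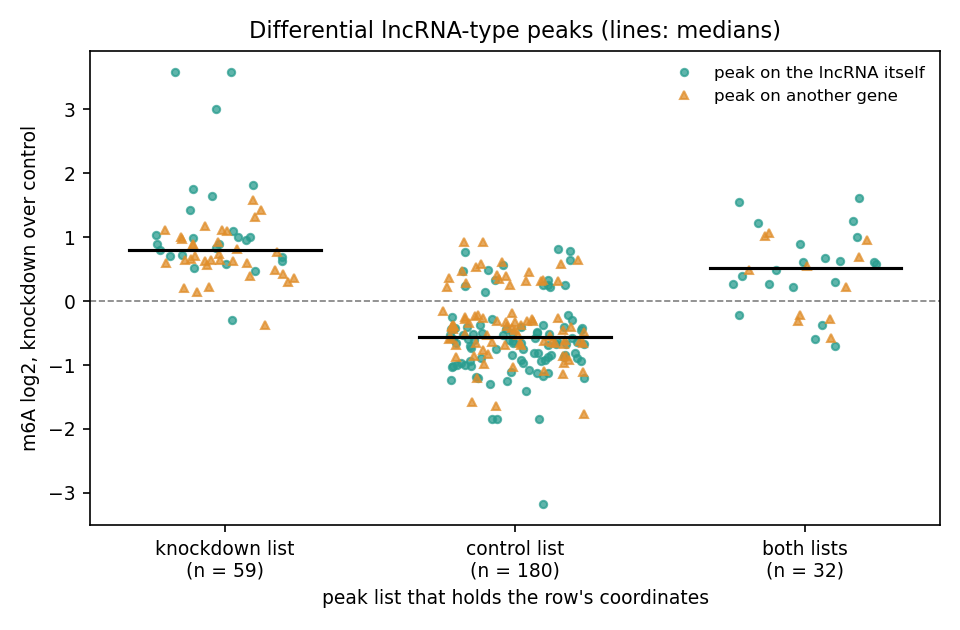
Log2 m6A change, knockdown over control, of the 271 differential lncRNA-type peaks in the authors' deposited table, by the list that holds their coordinates. Circles are peaks on the lncRNA itself, triangles peaks on another gene, and lines medians. Of the 59 points from the knockdown list 57 lie above 0, and of the 180 from the control list 145 lie below 0.

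The largest rise on a lncRNA itself was 3.58 on the log2 scale in the authors' deposited table, for C1orf220 (p = 0.0209) and AC004908 (p = 0.0112). C1orf220 stood at 0.352, 0.422 and 0.0643 FPKM in knockdown inputs, against 0.117, 0.428 and 0.0535 FPKM in control inputs, and the groups overlapped. The adjusted p in the authors' deposited table was 0.0562 for C1orf220, above 0.05, and 0.0339 for AC004908. LINC00662 (chr19:27731007-27731337) stood at 1.75 in the authors' deposited table (p = 0.000437). Its input level was 1.42, 1.60 and 1.62 FPKM in knockdown, against 2.94, 3.02 and 2.39 FPKM in control, with no overlap between groups. NRAV was higher by 1.62 in the authors' deposited table (p = 0.00741) at the 104-fold knockdown peak named above, which had 10.8-fold in the control list.

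The largest fall was that of ALMS1-IT1, an intronic transcript of ALMS1, at -3.17 in the authors' deposited table (p = 0.0257), with an adjusted p of 0.0676. Among peaks with an adjusted p of at most 0.05 in the authors' deposited table, the largest fall was -1.85. ALMS1-IT1 had 0.569, 0.385 and 0.665 FPKM in knockdown inputs, against 1.39, 1.59 and 1.36 FPKM in control inputs. LINC00942 stood at -1.85 (p = 0.000129) and KCNIP2-AS1 at -1.41 (p = 6.61e-09) in the authors' deposited table. LINC00942 had 0.498, 0.563 and 0.569 FPKM in knockdown inputs and 1.11, 0.795 and 1.18 FPKM in control inputs, while the groups overlapped for KCNIP2-AS1. For ALMS1-IT1 and LINC00942 the input level was thus lower in knockdown as well as the m6A value. Both averaged under 1 FPKM across the inputs, so neither level was tested. Over 53 tested lncRNAs with a member peak on themselves, the Spearman correlation of m6A and expression changes was 0.119. Where m6A was lower, expression was lower in 30 and higher in 7. Where m6A was higher, expression was lower in 11 and higher in 5.

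Of the 10 largest rises 8, and of the 10 largest falls 7, were on the lncRNA itself. AC009065 and AL445685, which rose by 1.58 and 1.43 in the authors' deposited table, name peaks in the 3′ UTRs of ECI1 and TXNDC12. AL445685 is listed at 0 FPKM in all 6 inputs.

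Within NEAT1 and MIR4435-2HG the deposited changes ran in both directions. On NEAT1, the authors' deposited table has 0.26 at chr11:65422774-65423223 (p = 2.51e-05) and -0.42 at chr11:65423492-65425287 (p = 7.94e-99), with a nearly equal second row for each. The first of these stretches was higher in the authors' deposited table although its enrichment was 17.4-fold in the knockdown list and 21.5-fold in the control list. Another NEAT1 stretch outside the set, chr11:65425975-65426274, stood at -0.86 in the authors' deposited table (p = 1.58e-24). On MIR4435-2HG the member peak stood at -0.85 in the authors' deposited table (p = 7.08e-06), beside 3 other stretches that were higher by 0.85 to 1.04 and 1 at -0.37. On PVT1 the member peak stood at 1.04 (p = 3.98e-19) and another stretch at 0.41 in the authors' deposited table.

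H19 was higher by 0.69 in the authors' deposited table (p = 0.00912), and KCNQ1OT1 lower at both of its member peaks, by -1.11 (p = 0.00347) and -0.58 (p = 0.00389). MALAT1 had no member row, but 2 other stretches on it stood at -0.43 and -0.90 in the authors' deposited table, with p listed as 0. NORAD had 1 other row, at -1.02 for 61 bp near its 3′ end in the authors' deposited table (p = 3.80e-06). The snoRNA hosts and the decoy list had no member row.

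Expression was taken from the input libraries, as FPKM deposited for the 6396 genes with a named differential peak. It was present for 823 of the 4040 lncRNA genes and not for the other 3217. Their median level was 0.255 FPKM (quartiles 0.0681 and 0.825), against 3.90 FPKM for the other genes of the table, and 7 lncRNAs reached a mean of 10 FPKM. For testing, a gene needed an average of 1 FPKM or more across the 6 inputs, which 173 lncRNAs had, 30 of them with a knockdown mean under 1 FPKM and 6 with a control mean under 1 FPKM. In bulk samples such as these, fewer cells of a type and less RNA per cell cannot be told apart.

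Of the 173, 18 rose and 89 fell in knockdown, and 66 were not called (limma on log2(FPKM + 1), Benjamini-Hochberg adjusted p under 0.05 over all 4515 tested genes). That is 10.4% up and 51.4% down, where 24.5% of all tested genes rose and 37.9% fell, 62.4% in all. Of the 152 lncRNAs with a peak on themselves 9.87% rose and 53.9% fell, and of the 21 with peaks on other genes alone 14.3% and 33.3%. The median log2 change was -0.21 for all 173 lncRNAs and -0.07 for all tested genes. Among the called lncRNAs, the knockdown and control libraries did not overlap in 18 that rose and 81 that fell. The same count was not made over all tested genes, so it shows nothing particular to lncRNAs. Under quantile normalization the split was 36 up and 50 down, or 20.8% and 28.9%, where 31.6% of all tested genes rose and 28.6% fell. Under median-centring it was 28 up and 64 down, or 16.2% and 37.0%, where 33.4% of all tested genes rose and 26.9% fell. The counts thus depend on the scaling, and under each of these scalings a smaller share of lncRNAs than of all tested genes rose. The share that fell was larger as deposited and under median-centring, and close under quantile normalization. It also depends on the level filter and was smaller with no filter. There 23.5% of 803 lncRNAs fell and 3.99% rose, against 31.5% and 17.5% of all tested genes. These differences in share were not tested.

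The balance also moved with expression level. Among genes of 1 to 2 FPKM, 4.81% of 104 lncRNAs rose and 51.0% fell, close to the 8.41% and 48.4% of 642 other genes at that level. Among genes of 5 FPKM or more, 30.4% of 23 lncRNAs rose and 47.8% fell, against 34.6% and 32.0% of 2367 other genes. Most tested lncRNAs were in the lowest range, where other genes also fell more often than they rose. By symbol, 11 of 18 LINC transcripts fell and 1 rose, 5 of 6 divergent transcripts fell and 0 rose, 12 of 30 antisense transcripts fell and 2 rose, and 45 of 91 clone-based transcripts fell and 11 rose. Of all tested genes 37.9% fell and 24.5% rose, and the antisense share of falls lay near the first of these.

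**Figure D4:**
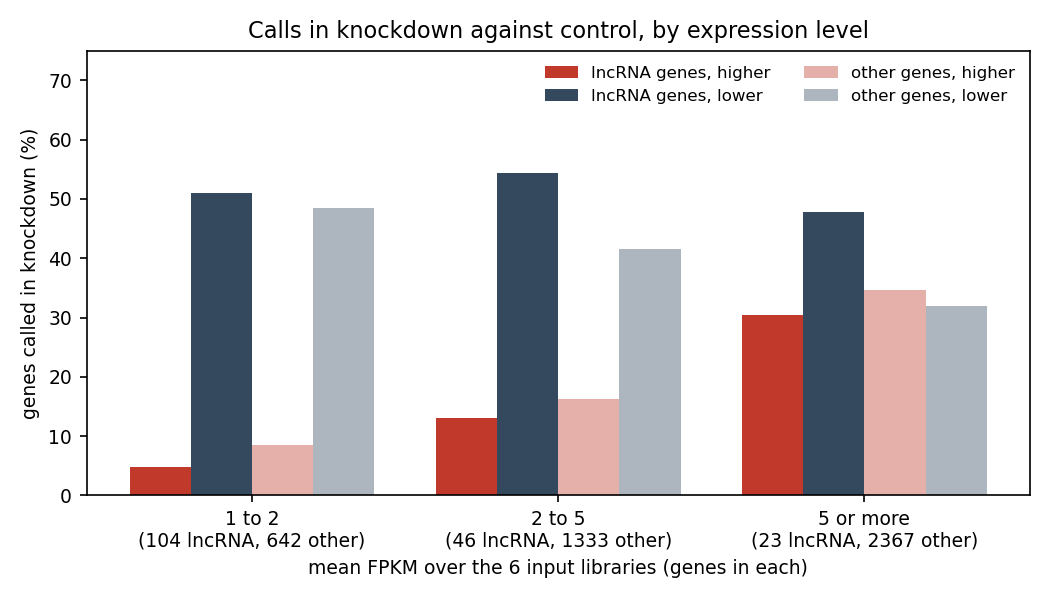
Percent of genes called higher (red) or lower (blue) in knockdown inputs against control inputs (limma, adjusted p under 0.05), by mean FPKM over the 6 inputs. Dark bars are lncRNAs and pale bars other tested genes. At 1 to 2 FPKM 51.0% of lncRNAs and 48.4% of other genes were lower.

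Both nuclear body lncRNAs fell. MALAT1 had 306, 336 and 343 FPKM in knockdown inputs, against 438, 428 and 411 FPKM in control inputs. NEAT1 had 20.1, 18.6 and 19.5 FPKM in knockdown inputs, against 29.4, 29.5 and 27.5 FPKM in control inputs. In neither gene did the groups overlap. The limma log2 changes were -0.38 ± 0.056 for MALAT1 (SE, adjusted p = 0.000752) and -0.55 ± 0.046 for NEAT1 (adjusted p = 5.42e-05, Benjamini-Hochberg).

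KCNQ1OT1 had 0.997, 0.988 and 1.04 FPKM in knockdown inputs, against 2.11, 2.15 and 1.88 FPKM in control inputs, and fell by 0.60 on the log2 scale (SE 0.056, limma adjusted p = 8.04e-05). OLMALINC had 3.33, 3.16 and 3.19 FPKM in knockdown inputs, against 6.85, 6.80 and 6.68 FPKM in control inputs, a log2 change of -0.88 ± 0.042 (limma adjusted p = 6.63e-06). LINC00662, given above by library, changed by -0.57 ± 0.076 (limma adjusted p = 0.000421). All 3 had the control inputs above every knockdown input.

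Among the HOX lncRNAs, HOXA11-AS, antisense to HOXA11, had 4.14, 3.11 and 3.71 FPKM in knockdown inputs, against 4.87, 4.88 and 5.78 FPKM in control inputs. It fell by 0.41 on the log2 scale (SE 0.092, limma adjusted p = 0.00535). HOTTIP had 10.4, 10.3 and 10.1 FPKM in knockdown inputs, against 10.04, 9.66 and 9.33 FPKM in control inputs. Its change of 0.08 was not called (limma adjusted p = 0.141), but was called under quantile normalization and median-centring.

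CYTOR, named for a role in the cytoskeleton, had 3.87, 3.59 and 3.64 FPKM in knockdown inputs, against 3.02, 2.71 and 2.66 FPKM in control inputs. It rose by 0.31 on the log2 scale (SE 0.055, limma adjusted p = 0.00173). Its close copy MIR4435-2HG had 1.59, 1.49 and 1.66 FPKM in knockdown inputs, against 1.26, 1.17 and 1.22 FPKM in control inputs, and rose by 0.22 (SE 0.054, limma adjusted p = 0.00854). The copies are nearly identical, so their shared reads could have been split between them and the values are uncertain.

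NORAD had 22.9, 23.5 and 23.5 FPKM in knockdown inputs, against 24.4, 24.9 and 23.0 FPKM in control inputs. Its change of -0.05 was not called (limma adjusted p = 0.369), and it was 0.05 with the other sign under median-centring. PVT1 had 15.3, 14.2 and 15.2 FPKM in knockdown inputs, against 17.8, 17.9 and 16.6 FPKM in control inputs, and fell by 0.21 (SE 0.047, limma adjusted p = 0.00513), a call lost under median-centring. H19 had 1.19, 1.06 and 0.718 FPKM in knockdown inputs, against 1.21, 1.45 and 1.71 FPKM in control inputs. Its fall of 0.31 (limma adjusted p = 0.0379) was lost when any of 4 libraries was left out: knockdown input 2 or 3, or control input 2 or 3, with adjusted p of 0.0579, 0.111, 0.0823 and 0.0996. It was also lost with no filter (limma adjusted p = 0.0721), under quantile normalization (0.38), under median-centring (0.129) and with the replicate number as a block (0.0688). Over the 6 lists together, 2 of 10 tested lncRNAs rose, 6 fell and 2 were not called, where 62.4% of all tested genes were called.

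**Figure D5:**
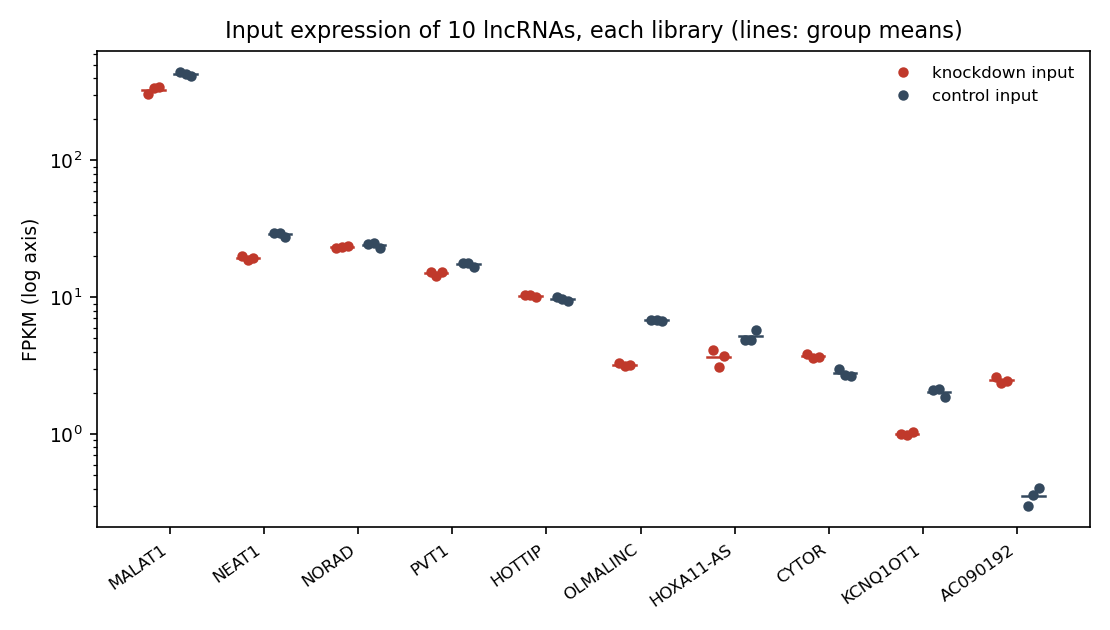
FPKM of 10 lncRNAs in each knockdown input (red, left) and control input (blue, right), on a log axis, with lines at group means. MALAT1, NEAT1, OLMALINC and KCNQ1OT1 lie lower in knockdown in every library, and CYTOR and AC090192 higher.

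The largest rise among lncRNAs was that of AC090192, known by its clone name, with 2.61, 2.37 and 2.45 FPKM in knockdown inputs, against 0.300, 0.361 and 0.408 FPKM in control inputs. Its limma log2 change was 1.36 ± 0.059 (adjusted p = 4.50e-06), and it passed the level filter through the knockdown libraries. AC092718 had 7.30, 8.62 and 6.80 FPKM in knockdown inputs, against 3.67, 3.73 and 2.71 FPKM in control inputs, a log2 change of 0.98 ± 0.11 (limma adjusted p = 0.000189). AGAP2-AS1, antisense to AGAP2, had 8.21, 8.42 and 9.56 FPKM in knockdown inputs, against 5.63, 6.32 and 5.0 FPKM in control inputs. The groups did not overlap in these 3 lncRNAs, and the remaining 7 of the 10 largest rises lay between 0.39 and 0.59 on the log2 scale.

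Among the 10 largest falls, AC091563 changed most, to 1.51, 1.44 and 1.12 FPKM in knockdown inputs, against 4.24, 3.21 and 3.79 FPKM in control inputs, a log2 change of -1.01 ± 0.096 (limma adjusted p = 8.53e-05). AC092343 was the most abundant of them, with 19.6, 17.9 and 17.8 FPKM in knockdown inputs, against 34.9, 34.4 and 30.8 FPKM in control inputs. URB1-AS1, antisense to URB1, had 2.22, 2.04 and 1.64 FPKM in knockdown inputs, against 4.37, 4.25 and 4.28 FPKM in control inputs. KDM7A-DT, divergent from the histone demethylase gene KDM7A, stood at 1.01 ± 0.040 FPKM in knockdown and 2.31 ± 0.081 FPKM in control (SD, n = 3 each). These falls of between 0.66 and 1.01 on the log2 scale were called under each alternative in which these 10 genes were tested. BX470102, AC139887, AC120114 and AC110285 had knockdown means of 0.602, 0.541, 0.738 and 0.870 FPKM. They passed the level filter through the control libraries. For AC091563 and AC139887 among the 10, the peaks of that name had been called on other genes alone.

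Set beside the lists, lncRNAs with peaks in the control list alone were expressed lower than those with peaks in both. Their median level was 0.164 FPKM in knockdown and 0.186 FPKM in control over 141 genes with FPKM, against 0.358 and 0.478 FPKM over 454 genes with peaks in both lists. The 29 with peaks in the knockdown list alone had medians of 0.364 FPKM in knockdown and 0.462 FPKM in control. Of the tested genes, 9 of 20 with control peaks alone fell and 1 rose, 69 of 125 with peaks in both fell and 11 rose, and 4 of 7 with knockdown peaks alone fell and 3 rose. Beside the 37.9% of all tested genes that fell and the 24.5% that rose, the share of falls with control peaks alone lay near that of all genes. The input libraries enter both the peak calls and these levels.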

How the data were processed

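m6A immunoprecipitation and input libraries were sequenced as paired ends. Per the submitters' processing notes, Bowtie 0.12.2, HISAT2 2.0 and StringTie 1.3.0 were used and a mouse build was named, although the gene identifiers are human; the peak caller is not given in the sources used here. The authors deposited 1 peak list per condition, with a fold enrichment (ratio) over input and log10 p-value scores per peak. They also deposited a differential table with log2 changes, p-values and input FPKM of the genes in it. The depth of the libraries is unknown.

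Peaks were selected by transcript type, and differential peaks by equal coordinates. The deposited log2 change ran control over knockdown and was turned round, after its sign was checked against the lists, where it matched the direction of the enrichments in 182 of 201 peaks with coordinates in both lists. Expression was tested with limma 3.58.1 in R 4.3.3 (trend, empirical Bayes) on log2(FPKM + 1), with a pseudocount of 1 for genes averaging 1 FPKM or more across the 6 inputs. P-values were Benjamini-Hochberg adjusted over 4515 genes, with a threshold of 0.05, and the procedure was tested on simulated data. An exact permutation test of 3 against 3 libraries cannot go below 0.1. Counts and overlaps used Python 3.11.15, pandas 2.3.3, numpy 2.4.6 and scipy 1.17.1, and figures matplotlib 3.10.9. A peak was called strong at an adjusted p of at most 1e-05. The largest log10 p in either of the authors' peak lists was -1.3, and the lists also hold peaks with an adjusted p above 0.05. Of 4040 gene identifiers, 3993 matched the name table.

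Named were the 10 most enriched peaks of each list, the 10 largest m6A rises and falls, the 10 largest expression rises and falls among called genes without overlap, and the members of 6 lists (nuclear body, snoRNA host, microRNA host, HOX cluster, decoy and stability, cancer-linked). Members and lists were chosen with earlier results of these data known. Alternatives were another pseudocount, filter, scaling, a replicate block, leaving out each library, stricter peak thresholds and peaks on the lncRNA itself. Peaks without a gene name in the differential table, 283 in number, were left out.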

Additional observations from a re-analysis of the deposited data

How the results depend on the processing

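Of 342 re-runs of single named lncRNA expression changes, 326 kept direction and call; 13 lost the call (AC016394, H19, PVT1), 2 gained it (HOTTIP), and NORAD changed sign under median-centring, to 0.047; the cause was not tested. The 18 lncRNAs up and 89 down became 32 and 189 of 803 with no filter (3.99% and 23.5%, against 17.5% and 31.5% of all tested genes), 7 and 11 of 23 at 5 FPKM (30.4% and 47.8%, against 34.7% and 32.3%), 36 and 50 under quantile normalization (20.8% and 28.9%, against 31.6% and 28.6%), and 28 and 64 under median-centring (16.2% and 37.0%, against 33.4% and 26.9%). Leaving out each library gave 14 to 19 up and 74 to 85 down. Same-numbered libraries did not deviate together (r of -0.0769, 0.0278 and 0.0247). With the replicate number as a block 21 rose and 85 fell, or 12.1% and 49.1%, against 23.8% and 37.1% of all tested genes.

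The lncRNA share of peaks (14.7% knockdown, 17.4% control) was 15.6% and 19.6% at 4-fold or more, 12.7% and 13.9% for strong peaks, 17.9% and 20.5% per gene, and 9.11% and 11.7% on the lncRNA itself. Median enrichment (7.77-fold knockdown, 6.84-fold control) was 8.41 and 7.86 for strong peaks and 9.70 and 8.40 with 1 peak per gene. The overlap share (88.5% knockdown, 49.4% control) was 49.3% and 30% at 50% reciprocal overlap, 90.6% and 71.3% for strong peaks, and 85.6% and 44% on the lncRNA itself. Differential peaks (116 higher, 155 lower) were 26 and 27 at a log2 of 1 or more, 56 and 87 on the lncRNA itself, and 424 and 605 over all lncRNA-type peaks of the authors' deposited table.

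The GGACT share under the peaks was not run, since no genome was used here; first transcribed bases were used instead, a choice made after seeing the data, as were the alternatives for peaks on the lncRNA itself, all lncRNA-type differential peaks and adjusted p of differential peaks. Pooled peak lists give no replicate error, FPKM give no counts, and levels were at hand for 823 of 4040 lncRNAs.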

Other observations

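RMRP, the RNA component of a mitochondrial RNA processing ribonuclease, gave its name to a peak in the 3′ UTR of ARHGEF39. Its level was 3.65, 2.83 and 27.5 FPKM in knockdown inputs, against 5.36, 535 and 3.45 FPKM in control inputs, so 1 library of each group stood far above the others. HAGLROS gave its name to a peak in the 3′ UTR of HOXD3, at 81.7-fold in the knockdown list and 13.8-fold in the control list. HOXB-AS3 gave its name to a peak in the 3′ UTR of HOXB6, at 36.2-fold in the knockdown list and 18.3-fold in the control list.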
